A study of Mus musculus with 18 samples.

Results

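CREB1 and ATF1 are closely related mouse transcription factors of the basic leucine zipper (B-ZIP) family, and the 4 arrays compared here measured where each one binds on DNA with ordinary cytosine. Arrays were taken by their labels: 2 arrays of CREB1 and 2 of ATF1, each double-stranded with unmodified cytosine, out of 18 arrays in the series. The other 14 arrays hold these 2 proteins on DNA with 5-methylcytosine or 5-hydroxymethylcytosine, and JUND on all 3 kinds of DNA. In a protein binding microarray, a tagged protein is laid over an array of double-stranded probes and the fluorescence of each spot reports how much protein stayed. The proteins were DNA-binding domains with 15 native residues on each side, fused to GST and made in a cell-free reaction of 25 µL from 180 ng of plasmid, so they stand for the binding domain alone and not for the full proteins in cells. Nothing in the labels ties the paired arrays to separate protein preparations, and every p-value below then reflects array-to-array spread, perhaps of a technical kind alone.

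B-ZIP proteins bind DNA as dimers, with each basic region reading one side of a short palindrome. CREB1 and ATF1 belong to the subfamily that recognises the cAMP response element (CRE), TGACGTCA, and its TGACGT half-site, and they can form dimers with each other. In the nucleus they are activated by phosphorylation downstream of cAMP and calcium signals.

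The sites on which the comparison turns are shown first, each within a probe. Capitals mark the 8-mer, and the strand is the one made during double-stranding. For each 8-mer the probe shown is the brightest over the 4 arrays among those that were not saturated on any array, so it was picked by its signal.
TGACGTCA: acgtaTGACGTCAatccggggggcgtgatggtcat
TGACGTAA: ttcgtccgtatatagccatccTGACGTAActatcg
TGACGTAT: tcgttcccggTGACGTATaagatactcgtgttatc
TGACGTGG: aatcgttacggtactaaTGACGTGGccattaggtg
TGACGTCA is the full CRE palindrome, and the others keep the TGACGT half-site but change what follows it. The TGACGTAT probe lay 41.0 and 27.7 times above the array median with CREB1, and 31.9 and 26.7 times above it with ATF1. The TGACGTGG probe lay 68.8 and 35.6 times above the median with CREB1, and 28.7 and 20.9 times above it with ATF1. The TGACGTCA probe lay 30.0 and 30.5 times above it with CREB1 and 19.3 and 18.6 with ATF1, and the TGACGTAA probe 60.05 and 40.1 against 32.5 and 26.9. In these folds both ATF1 values were the lower ones on 3 of the probes, and on the TGACGTAT probe the values of the proteins overlapped. The array median was higher with ATF1, which lowers its folds and the largest fold it can reach. Raw signals at TGACGTAT were 36725 and 49178 with CREB1 and 57655 and 62660 with ATF1. At TGACGTGG they were 60613 and 64102 against 51872.5 and 49813. At TGACGTCA (26798 and 48395 against 35097 and 43744) and TGACGTAA (52839 and 62832 against 58490 and 63357) they overlapped.

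An 8-mer was scored by the z-score in the authors' deposited table, which summarises the probes that carry it. The analysis kept the 64454 8-mers found on 10 or more probes, with a median of 17 probes. An 8-mer and its reverse complement sit on different probes and were kept apart. Median probe signals were 1612 and 2135 with CREB1, and 2638.5 and 3291 with ATF1. The signal was 2.12 and 3.64 times the local background with CREB1, and 3.10 and 3.36 times with ATF1. Saturated probes, those at the top of the scanner's range, numbered 17 and 60 of 40330 with CREB1 and 56 and 84 with ATF1. Saturation caps the value of the strongest sites.

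Both proteins put the CRE and its half-site at the top. TGACGTCA had z-scores of 193 and 136 with CREB1 and 121 and 89.7 with ATF1, which made it rank 1 and 3, and rank 3 and 7. TGACGTAA, a half-site followed by adenines, scored 154 and 146 with CREB1 and 103 and 93.8 with ATF1. ACGTCACA, a half-site read on the other strand, ranked 2 and 2 with CREB1 and 1 and 6 with ATF1. TGACGTCA lay on 19 probes, and saturation touched 4 and 8 of them with CREB1 and 11 and 12 with ATF1, so its ATF1 values in particular are lower bounds. Among the 100 highest 8-mers of each protein 89 were shared. The 2 CREB1 arrays shared 91, the 2 ATF1 arrays 89, and arrays of different proteins 85 to 88.

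Over all 8-mers, z-scores of the CREB1 arrays correlated at 0.957 (Pearson's r) and those of the ATF1 arrays at 0.952. Between proteins the correlation was 0.915 to 0.944. These correlations run across 64454 8-mers that share probes, and they describe the arrays only.

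**Figure D1:**
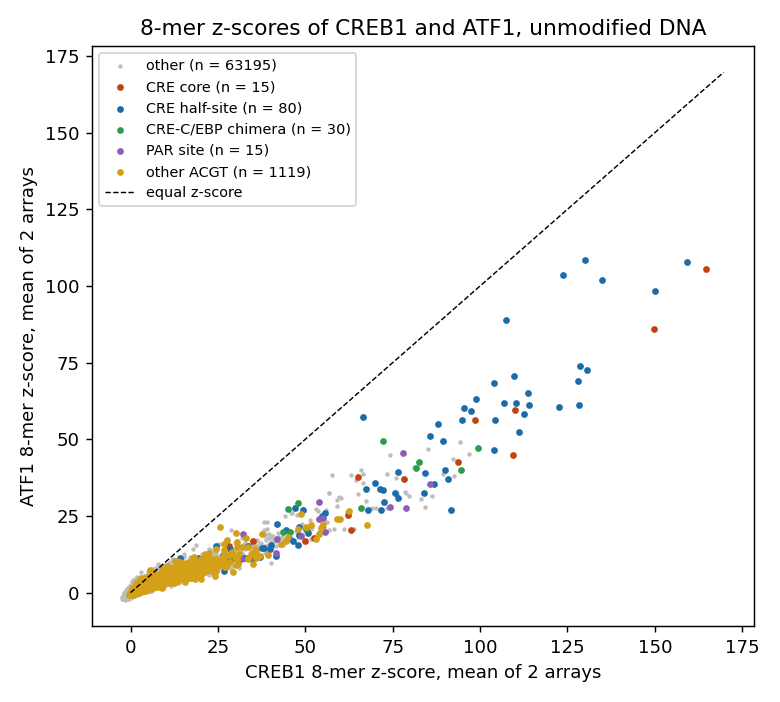
Mean z-score of each 8-mer over the 2 arrays of CREB1 (horizontal axis) and of ATF1 (vertical axis), coloured by the sequence list it belongs to, with a dashed line at equal z-scores. CRE core and half-site 8-mers take the highest values of both proteins and lie below the line, with TGACGTCA at 165 for CREB1 and 106 for ATF1.

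CREB1 reached higher z-scores than ATF1 across the CRE-like lists. A high percentile of all 8-mers was also higher on the CREB1 arrays, as given below. The counts and means here are not corrected for that scale. With a z-score of 4 or more taken as bound, CREB1 bound 3266 ± 806 8-mers (SD, n = 2) and ATF1 1874 ± 15.6. The mean z-score of the 15 CRE core 8-mers (those with TGACGTC) was 79.7 ± 1.39 with CREB1 and 39.6 ± 4.09 with ATF1. For the 80 half-site 8-mers outside the core it was 72.2 ± 4.91 and 38.5 ± 1.98. PAR sites (TTACGTA), named for a B-ZIP subfamily that prefers them, had 52.3 ± 11.7 and 22.1 ± 0.629. E-boxes (CACGTG), the site of many basic helix-loop-helix proteins, had 8.69 ± 1.81 and 4.15 ± 0.0563.

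Expressed against the CRE core of the same array, 4 lists stood as follows. Half-site 8-mers reached 90.6% ± 4.57 of the core with CREB1 and 97.4% ± 5.05 with ATF1. PAR sites reached 65.4% ± 13.6 and 56.1% ± 4.21. CRE-C/EBP chimeras, which join TGAC to the GCAA end bound by C/EBP proteins, reached 38.4% ± 3.15 and 38.4% ± 0.399. E-boxes reached 10.9% ± 2.08 and 10.5% ± 0.945. Arrays of the proteins overlapped for PAR sites, chimeras and E-boxes. For half-site 8-mers they stood at 87.3% and 93.8% with CREB1 and at 93.9% and 101% with ATF1, without overlap.

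A test of the z-scores with limma (default mean-variance trend, Benjamini-Hochberg over all 64454 8-mers) called 30 8-mers, 0.0465% of those tested, all higher with CREB1. At an unadjusted p under 0.05 there were 6471. Of the 30, 19 carried TGACGT: 3 of the 15 CRE core 8-mers and 16 of the 80 half-site 8-mers tested. ACGT was in 25 of the 30. The largest difference was at CACGTCAT, with z-scores of 142 and 115 with CREB1 and 66.3 and 56.1 with ATF1. GACGTCAC scored 169 and 131 against 98.0 and 74.1, and TGACGTGG 129 and 116 against 58.5 and 62.9. In each of these the 2 CREB1 values lay above both ATF1 values. Their reverse complements ATGACGTG, GTGACGTC and CCACGTCA kept that order but did not pass (limma adjusted p = 0.0740, 0.286 and 0.636). The scale of the z-scores differs between arrays, with a high percentile of all 8-mers at 69.6 and 80.7 with CREB1 and at 37.4 and 33.2 with ATF1. After each array was divided by that percentile the calls became 0 higher with CREB1 and 2 higher with ATF1, and after quantile normalization 2 and 7.

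These p-values rest on how the spread is modelled. For the 9 8-mers with a mean z-score above 100, the spread between arrays of 1 protein was 17.6, while limma's default trend assigned them 0.285. In ranks, the top 13 8-mers had a spread of 0.164 against an assigned 0.0199. The gap was not limited to these. The 76 8-mers with mean normal scores of 3 to 3.5 had 0.0767 against 0.0391. In z-scores, the 2156 8-mers with means of 4 to 16 had 2.49 against 1.39. The 352 with means of 16 to 64 went the other way, with 7.46 against 14.8. So did the 34 with means of 64 to 100, with 8.85 against 15.2. With 5 forms of the trend in all, run after the data had been seen, the z-score calls numbered 30 with the default, 161 with a running window over neighbouring 8-mers, 0 with a trend on the asinh of the mean, 631 with a trend on its rank, and 196 with none. The rank calls were 13, 8, 4, 0 and 0 in the same order. Of the default's 30 z-score calls, 20, 0, 24 and 16 were also called by the other forms in that order. Of its 13 rank calls, 3, 4, 0 and 0 were. The adjusted p-values below are therefore given with the default form, and the difference itself is given by its values.

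Ranks within an array remove a difference in brightness that keeps the order of the 8-mers. Ranks were turned into normal scores and tested in the same way. The test called 13 8-mers, 0.0202% of those tested: 3 ranked higher with CREB1 (0.00465%) and 10 with ATF1 (0.0155%), with 5431 at an unadjusted p under 0.05. Ranks of the 2 proteins did not overlap at 12350 8-mers in favour of CREB1 (19.2% of all) and at 12277 in favour of ATF1 (19%). Of the 80 half-site 8-mers, 2 were called higher with CREB1 and 7 with ATF1, while ranks did not overlap at 20 in favour of CREB1 and 17 in favour of ATF1. Of the 15 core 8-mers, 1 was called higher with CREB1, and ranks did not overlap at 6 in favour of CREB1 and 3 in favour of ATF1. The split of calls between the proteins was not stable: it was 193 higher with CREB1 and 32 with ATF1 without ATF1 replicate 1, 85 and 27 without ATF1 replicate 2, 11 and 46 without CREB1 replicate 1, 10 and 11 without CREB1 replicate 2, 5 and 3 with the window form, and 4 and 3 with recomputed signals.

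Some half-sites followed by adenine took earlier ranks with ATF1. Of 16 such 8-mers, 5 were called higher with ATF1 and 1 with CREB1, beside 0.0155% and 0.00465% over all 8-mers. Ranks did not overlap at 7 and 1, beside 19% and 19.2% over all. With cytosine, guanine or thymine next, ranks did not overlap in favour of ATF1 at 3 of 15, 3 of 16 and 1 of 16. For CREB1 these were 6, 6 and 5. Among those followed by adenine, TGACGTAA lay on the side of CREB1 with a normal-score difference of 0.24, which did not pass (limma adjusted p = 0.0817). TGACGTAT ranked 86 and 84 with CREB1 and 25 and 25 with ATF1, a difference in normal score of -0.36 ± 0.04 (SE; limma adjusted p = 1.78e-08). It lay on 11 probes, close to the minimum of 10, and 8 of them were not saturated on any array. Its z-scores were 60.7 and 72.5 against 58.0 and 56.4, a smaller gap than at the CRE. TGACGTAG ranked 22 and 22 with CREB1 and 8 and 4 with ATF1 (limma adjusted p = 2.59e-12). GTGACGTA ranked 7 and 18 against 4 and 4, and its reverse complement TACGTCAC 10 and 7 against 2 and 1. In all 4 the ATF1 arrays held the earlier ranks without overlap. The window form gave adjusted p-values of 0.142, 0.219, 0.421 and 0.0468 for these 8-mers, and the asinh form 0.0482, 0.00609, 0.174 and 3.34e-07. The remaining call for ATF1, ATGACGTA, ranked 8 and 5 with CREB1 and 5 and 2 with ATF1, so the proteins met at rank 5. Its limma adjusted p was 0.00573 with the default, 0.626 with the window form and 0.312 with the asinh form.

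The size of these shifts varied with the strand and with the way signals were summarised. ATACGTCA, the reverse complement of TGACGTAT, ranked 60 and 64 with CREB1 and 52 and 49 with ATF1. CTACGTCA, that of TGACGTAG, ranked 54 and 38 against 34 and 31. With probe signals recomputed over all probes, the normal-score difference was -0.37 at TGACGTAT, -0.25 at GTGACGTA, -0.0771 at TGACGTAG and -0.34 at TACGTCAC. With saturated probes also left out it was -0.31 at TGACGTAT (limma adjusted p = 0.00318) and -0.24 at GTGACGTA (limma adjusted p = 0.00669). It was -0.000996 at TGACGTAG (limma adjusted p = 0.998), and at TACGTCAC it turned to 0.34 and passed in favour of CREB1 (limma adjusted p = 0.000205). TACGTCAC had 7 and 11 of its 18 probes saturated with ATF1 and 3 and 3 with CREB1. Probes saturated on any of the 4 arrays were left out, so the probes kept were picked by their signal. That kept at most 7 probes at TACGTCAC and at most 8 at TGACGTAT and GTGACGTA, below the minimum of 10. Of the 13 rank calls, 9 had the same sign with recomputed signals without saturated probes, 3 of those past the threshold, and 4 had the opposite sign.

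The 3 calls in favour of CREB1 were TGACGTGG, GTACGTCA and TGACGTCA. TGACGTGG ranked 9 and 12 with CREB1 and 24 and 16 with ATF1 (limma adjusted p = 0.00163), and its reverse complement CCACGTCA 39 and 53 against 73 and 54. GTACGTCA ranked 30 and 46 against 90 and 111 (limma adjusted p = 0.000176). The same site read on the other strand, TGACGTAC, ranked 110 and 124 against 121 and 106, with the proteins overlapping. With signals recomputed over all probes the normal-score difference was 0.11 at TGACGTGG (limma adjusted p = 0.365) and 0.25 at GTACGTCA (limma adjusted p = 0.00817). Without saturated probes it was 0.098 (limma adjusted p = 0.399) and 0.14 (limma adjusted p = 0.505), so neither passed there. TGACGTCA, the CRE itself, was called higher in rank with CREB1 (0.30 ± 0.05, SE, limma adjusted p = 0.000785). Its ranks were 1 and 3 with CREB1 and 3 and 7 with ATF1, so the proteins met at rank 3. Its normal-score difference was -0.0552 with recomputed signals over all probes, and -0.69 without saturated probes, where it passed in favour of ATF1 (limma adjusted p = 1.97e-13). Only 6 of the 19 TGACGTCA probes were kept there.

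**Figure D2:**
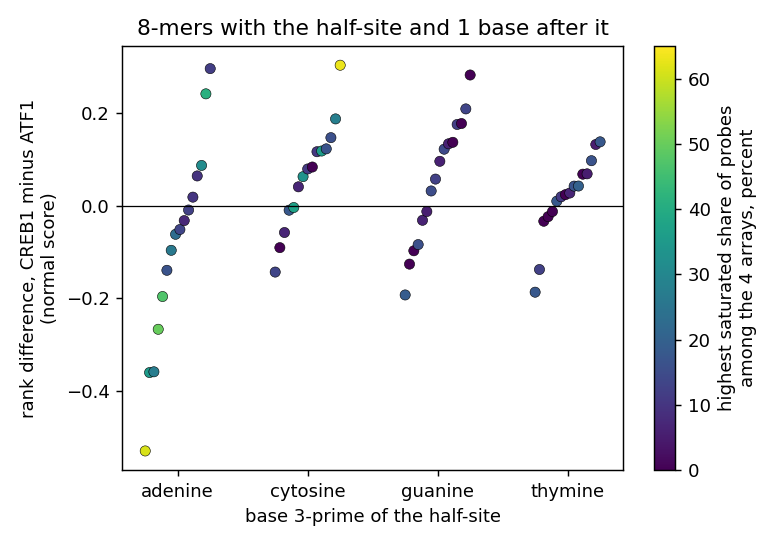
Difference in rank between CREB1 and ATF1 (normal score, vertical axis) for each 8-mer that holds the TGACGT half-site and the base after it (horizontal axis); a point is one 8-mer and its colour is the highest saturated share of its probes on any of the 4 arrays, in percent. The 4 lowest points are half-sites followed by adenine, down to -0.53 at TACGTCAC, whose probes were among the most saturated.

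Flanking bases of the half-site were then compared by array. Each base was scored as its mean value in percent of the mean over the contexts of TGACGT on that array, here for 8-mers that read TGACGT on the strand made during double-stranding. Adenine directly after TGACGT stood at 131% and 120% with CREB1 and at 155% and 159% with ATF1. Thymine there stood at 75.9% and 79.7% against 68.2% and 69.0%, and guanine at 93.7% and 95.8% against 84.7% and 88.8%. Cytosine, the base of the full palindrome, overlapped at 109% and 105% against 107% and 99.3%. In z-scores on this strand both proteins had their highest value at adenine and their lowest at thymine, and both ATF1 arrays lay further from 100% at each. On the other strand the CREB1 arrays differed, with cytosine at 131% and 114% and adenine at 115% and 126%. Their means were 122% ± 12.5 for cytosine and 120% ± 7.37 for adenine. Both ATF1 arrays were highest at adenine there (138% ± 1.51). Without saturated probes adenine stood at 113% and 110% with CREB1 and at 119% and 126% with ATF1, a gap of 11.4 percentage points. The gap was 27.7 with recomputed signals over all probes and 31.6 in z-scores. With 2 arrays against 2, an exact two-sided permutation test cannot give a p below 0.333, so no test is given for flanks.

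**Figure D3:**
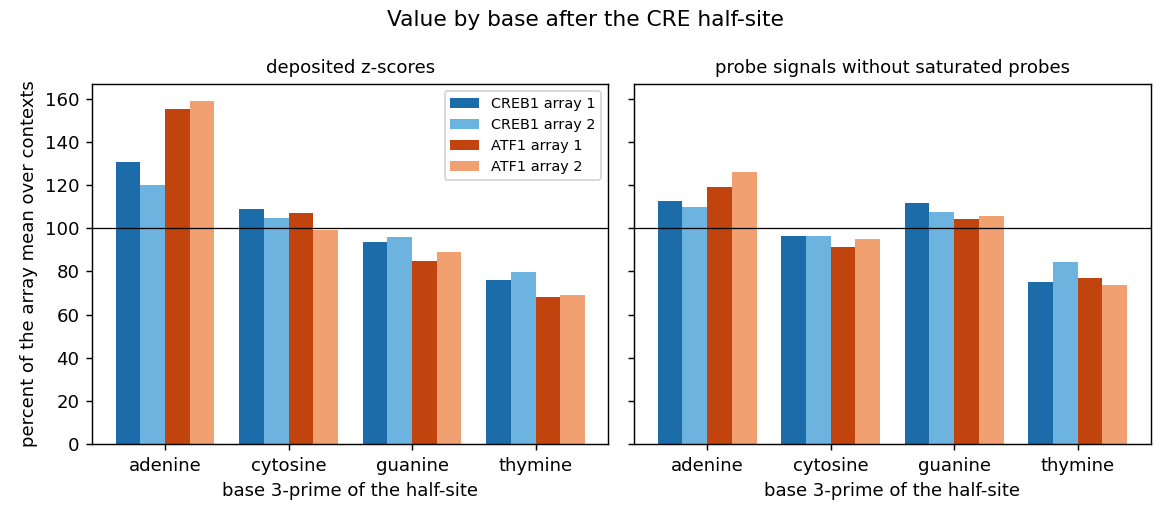
Value by the base directly after TGACGT, in percent of the array's mean over contexts (vertical axis, bars from 0, line at 100), for each of the 4 arrays, from the deposited z-scores (left) and from probe signals without saturated probes (right). Both ATF1 arrays lie above both CREB1 arrays at adenine in each panel, by less on the right.

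Each flanking base was looked at in 6 ways: z-scores, recomputed signals and recomputed signals without saturated probes, each on both strands. Of 16 combinations of position and base, 3 separated the arrays of the proteins in the same direction in all 6. These 3 were adenine directly after the half-site, higher with ATF1, and cytosine at the second base after it and directly before it, both higher with CREB1. Cytosine at the second base after TGACGT stood at 58.8% and 68.6% with CREB1 and 50.2% and 53.3% with ATF1. Cytosine directly before TGACGT stood at 71.6% and 77.2% against 64.9% and 69.3%. Guanine directly before it was higher with ATF1 in 5 of the 6 and higher with CREB1 in 1, the reverse strand without saturated probes, at 136% and 123% against 117% and 106%.

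Single probes showed the adenine preference too. Among 531 probes with 1 TGACGT on either strand and a base after it, the median log2 signal over the array median was 4.60 and 4.40 with adenine next and 3.35 and 3.62 with thymine next, for CREB1. For ATF1 it was 3.58 and 3.43 with adenine and 2.43 and 2.34 with thymine. Adenine exceeded the mean of the other 3 bases by 0.78 and 0.54 with CREB1 and by 1.01 and 0.85 with ATF1. Without saturated probes these were 0.48 and 0.39, and 0.62 and 0.42, which overlap.

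Changes within the CRE were ordered alike. Among TGACGTCA and its 24 single-base variants, TGACGTAA was among the top 2 on every array, TTACGTCA among the top 4, and TGAAGTCA last. TGATGTCA, in which the CpG is lost, kept z-scores of 33.2 and 49.8 with CREB1 and 17.2 and 16.2 with ATF1. TGACTTCA fell to 4.51 and 5.41, and to 3.40 and 4.13. None of the 24 passed the rank test. Among the 252 8-mers tested that begin with TGAC, 19 of the 20 highest were shared by the proteins.

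Away from the CRE, several lists leaned to 1 protein. Of 254 8-mers made of A and T alone, ranks did not overlap in favour of ATF1 at 94 (37.0%) and of CREB1 at 18 (7.09%), beside 19% and 19.2% over all 8-mers. Of 48 homeodomain 8-mers (TAATTA), ranks did not overlap in favour of ATF1 at 24 (50%) and of CREB1 at 2 (4.17%). E-box 8-mers went the other way, without overlap in favour of CREB1 at 25 of 48 (52.1%) and of ATF1 at 2 (4.17%). So did 8-mers with ACGT outside the named sites, at 478 of 1119 (42.7%) and 122 (10.9%). No member of these 4 lists passed the rank test. Levels were low at the A and T sites: 8-mers of A and T alone had a mean z-score of 0.273 ± 0.148 with CREB1 and 0.586 ± 0.0426 with ATF1. Homeodomain 8-mers had mean z-scores of 1.28 ± 0.0457 and 1.25 ± 0.157, with the arrays of the proteins overlapping. Their median z-scores were 0.464 and 0.0578 with CREB1 and 0.964 and 0.543 with ATF1. AP-1 sites (TGACTCA), which FOS and JUN proteins prefer, had 4.90 ± 2.23 and 3.03 ± 0.557.

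ATTTGATG and ATGATAAA were the rank calls without a CRE half-site or chimera, both higher with ATF1. ATTTGATG had z-scores of 0.543 and 0.933 with CREB1 and 3.30 and 5.19 with ATF1, with no saturated probe (limma adjusted p = 0.0192 in ranks and 0.0930 in z-scores). ATGATAAA, a GATA-type sequence, had 3.05 and 2.65 against 8.31 and 5.11 (limma adjusted p = 0.0456 in ranks and 0.191 in z-scores). Their reverse complements showed no such gap: CATCAAAT had 0.825 and -0.0753 against 0.728 and 1.34, and TTTATCAT 0.772 and 0.247 against 0.257 and -0.229.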

How the data were processed

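Each array's probes were scanned, and the authors deposited median signal and local background intensity per probe, per the file headers. In a second table the authors deposited z-scores, 1 score per 8-mer and array made before deposit from the probes that hold it, per the file headers; no header or label gives the formula or the scanner settings. Scores of 8-mers on 10 or more probes were compared between 2 CREB1 and 2 ATF1 arrays with limma 3.58.1 in R 4.3.3 (lmFit and eBayes with the default mean-variance trend, two-sided, adjusted p at most 0.05), on z-scores and on normal scores of within-array ranks. The procedure was tested on simulated data, where a first check on the share of false calls failed for the default trend. A check on the share of unchanged 8-mers with an unadjusted p under 0.05 took its place. The simulation therefore does not vouch for the adjusted calls. The form of the trend was examined after results under 5 forms had been seen; the default was kept because it is the plain reading of the plan, and the other forms are reported as alternatives. Signals were also recomputed as the median background-subtracted intensity (floor 1) of an 8-mer's probes, with and without saturated probes. A probe saturated on any of the 4 arrays was left out of all 4, and no minimum was set for the probes kept. Replicate numbers did not pair arrays: same-numbered deviations correlated at 0.00149 (z-scores) and 0.00416 (ranks). The members, lists and tests were chosen with earlier results of these data known. Named 8-mers are TGACGTCA and its single-base variants, the 10 highest of each protein, the highest of each list, and the extreme contexts of TGACGT. Up to 5 with the largest called differences in each direction that do not overlap are named too. Reverse complements are given with several of them. The number of arrays limits the precision.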

Additional observations from a re-analysis of the deposited data

How the results depend on the processing

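The z-score calls (30) became 301 with a replicate block, 1386 with all 18 arrays, 33 with the 6 unmodified arrays, 1246 with the 12 arrays of CREB1 and ATF1, 58 without a probe minimum, 40 with 15 probes, 196 with no trend, 19 with orientations merged, 1738 from recomputed log2 signals, 1666 without saturated probes, 4 without background subtraction, 161, 0 and 631 with the window, asinh and rank-covariate trends, 2 after scaling to a high percentile and 9 after quantile normalization. Leaving out 1 array gave 32 to 3804, with 3804 without CREB1 replicate 1 and 1070 without CREB1 replicate 2. The rank calls (13) became 46 with the replicate block, 0 with all 18, with 6 and with 12 arrays, 67 without a probe minimum, 21 with 15 probes, 0 with no trend, 39 merged, 7 recomputed, 24 without saturated probes, 10 without background subtraction, and 8, 4 and 0 with the window, asinh and rank-covariate trends; leaving out 1 array gave 21 to 225, with 57 without CREB1 replicate 1, 225 without ATF1 replicate 1 and 112 without ATF1 replicate 2. The replicate block used numbers that do not pair the arrays. For the 0 calls of the asinh form in z-scores 6585 8-mers had an unadjusted limma p under 0.05, and for the 0 rank calls 1918, 2645, 3048, 4710 and 5261 (18, 6 and 12 arrays, no trend, rank covariate). The trend forms were added after the data were seen; the cause of these changes was not tested.

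Scaled to a high percentile of each array, the z-score difference reversed at TGACGTCA (-0.744), TGACGTAA (-0.780), ACGTCACA (-0.897), GACGTCAC (-0.406), ATGACGTA (-1.08), GATGACGT (-0.300), TACGTCAC (-1.32), TATGACGT (-0.389), CACGTCAT (-0.000741), AGTGACGT (-0.249), TGACGTAG (-1.10) and TGACGTGG (-0.0834), in units of that percentile. After quantile normalization it reversed at ATGACGTA (-13.8), TACGTCAC (-30.6), GTGACGTA (-23.1) and TGACGTAG (-30.9). The rank difference reversed without saturated probes at TGACGTCA (-0.69), TGACGTAA (-0.52), TACGTCAC (0.34), TATGACGT (-0.29), AGTGACGT (-0.45) and TGACGCAA (0.0859), with recomputed signals at TGACGTCA (-0.0552), without background subtraction at TGACGTCA (-0.107) and ATGACGTA (0.101), and without ATF1 replicate 2 at ACGTCACA (-0.249; 0.313 without ATF1 replicate 1).

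Bound 8-mers numbered 4602 (CREB1) and 2981.5 (ATF1) at a z-score of 3, and 2022.5 and 929.5 at 6; for ATF1 1940 without a probe minimum and 1740.5 with 15 probes. Of the 50 highest 8-mers 82% were shared. The ATF1 excess of adenine after TGACGT was 17.6 points on the reverse strand and 11.4 without saturated probes; before TGACGT on the reverse strand it was -16.1 for cytosine, 35.6 for guanine and -11.8 for thymine; guanine and thymine after it moved to -4.34 and -4.28 without saturated probes. Saturation and 2 arrays per protein limit what can be said of the strongest sites.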
